A study of Homo sapiens with 6 samples.

Results

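The genes described here are 9 keratins with RNA in RPMI 8226, an established human multiple myeloma cell line: KRT81, KRT86, KRT7, KRT80, KRT8 and KRT6C of type II, and KRT18, KRT10 and KRT15 of type I. They were chosen by gene symbol, from a list drawn up with results of these data known. Which values chose each gene is not recorded. KRT81 and KRT86, known to be among the genes with the largest decreases, are treated as chosen for that difference. For the others a choice by difference cannot be told apart from a choice by level, so their p-values are given as descriptions of the fit and not as independent evidence. They are 9 of 34500 genes, and 56 of 159239 transcripts, that could be matched to the GENCODE 29 annotation. Both groups of 3 libraries came from cells transduced with a lentivirus that carried a short hairpin RNA, kept in puromycin for 48 h and grown in medium with 10% serum. The shLuc hairpin targets luciferase, which human cells lack, and served as the control. The shHDAC1 hairpin targets the histone deacetylase HDAC1. The labels describe pools of transduced cells of a single line, made in triplicate, and name each hairpin only by its target.

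Keratins are the intermediate filament proteins of epithelial cells. A filament is built from pairs of an acidic type I chain and a basic type II chain, so a cell that makes one kind usually makes a partner of the other. KRT8 and KRT18 form the pair of simple epithelia, KRT7 is found in glands and ducts, KRT10 and KRT15 belong to the upper and the basal layers of stratified epithelium, and KRT81 and KRT86 are hard keratins of the hair shaft. Plasma cells, from which myeloma arises, are not epithelial, and most keratins are not thought of as plasma cell genes.

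KRT81 and KRT86 are near-copies of each other, which bears on how reads can be assigned between them. KRT81 lies within the annotated span of KRT86 on the opposite strand. Over the whole coding sequences, of 1515 and 1458 bases, 90.1% of aligned positions were identical, or 94.2% when gaps were left out. Of the 50-base windows of KRT81-201, 38.4% also occurred in KRT86 transcripts, and 35.3% of those of KRT86-201 occurred in KRT81. Reads of such windows cannot be assigned to one of these genes by sequence, so the split between KRT81 and KRT86 is uncertain, while their sum is less so.

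KRT6C has the same difficulty with KRT6B and KRT6A. The 120 coding bases inside a single exon in which the 3 genes differed most are shown, with the differing bases in capitals. They are positions 626 to 745 of each coding sequence. They lie on the minus strand at chr12:52472076-52472195 for KRT6C, chr12:52450416-52450535 for KRT6B and chr12:52491532-52491651 for KRT6A (GRCh38).
KRT6C-201: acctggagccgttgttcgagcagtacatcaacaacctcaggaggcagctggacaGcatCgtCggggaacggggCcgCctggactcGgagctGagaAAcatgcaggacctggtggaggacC
KRT6B-201: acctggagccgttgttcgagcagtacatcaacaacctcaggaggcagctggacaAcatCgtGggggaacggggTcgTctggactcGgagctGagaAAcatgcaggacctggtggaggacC
KRT6A-201: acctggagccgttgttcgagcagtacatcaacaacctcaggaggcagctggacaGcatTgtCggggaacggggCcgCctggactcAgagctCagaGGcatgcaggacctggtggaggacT
Even this stretch held only 10 positions at which the 3 were not all alike. KRT6C was 98.5% identical to KRT6B and 97.9% to KRT6A over its coding sequence, and 53.6% of its 50-base windows occurred in another gene. The libraries gave KRT6C 3.64 TPM with shLuc, against 0.0258 for KRT6B and 0.137 for KRT6A, but a value for KRT6C alone rests on the windows the copies do not share.

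Levels are given in TPM, a transcript's length-corrected share of a library, so they can be compared between genes. TPM keep no record of read number, so the depth is unknown and no counting error can be given. HDAC1 itself had 90, 85 and 88.9 TPM with shLuc. With shHDAC1 it had 31.8, 27 and 29.2 TPM, or 33.3% of the control mean. The 10 plasma cell markers had a summed level of 8124 to 8937 TPM with shLuc and 6006 to 7263 TPM with shHDAC1, most of it in JCHAIN (6175 TPM with shLuc) and MZB1 (1487 TPM). The lowest were FCRL5, at 2.3 TPM with shLuc, and SLAMF7, at 0.166 TPM and below the filter on low values. JCHAIN, MZB1 and SLAMF7 are named after their values were seen. Differences between the groups were tested on log2(TPM + 1) with limma in 11857 genes that reached 1 TPM in 3 libraries or more. On this scale the changes of low genes look smaller than they are. Genes were called at a Benjamini-Hochberg adjusted p below 0.05 over all genes tested.

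In control cells KRT18 stood above the other keratins, at 138 ± 5.43 TPM (SD, n = 3). KRT7 followed at 57.3 ± 5.84 TPM, and neither overlapped its neighbour in the order. KRT15 (34.4 ± 6.99), KRT10 (28.2 ± 1.52), KRT8 (25.3 ± 5.39) and KRT86 (21.2 ± 0.658 TPM) came next, and each of them overlapped the one before it, except that KRT15 did not overlap KRT7. KRT81 (13.5 ± 1.59), KRT80 (5.99 ± 0.154) and KRT6C (3.64 ± 0.239 TPM) were lower and did not overlap. With shHDAC1 the order was KRT18, KRT7, KRT10, KRT8, KRT15, KRT80, KRT86, KRT81 and KRT6C, and KRT86 and KRT81 had moved below KRT80. In that order KRT8 and KRT15 were the sole neighbours that overlapped.

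The 9 genes held nearly all keratin RNA, 98.9% to 99.5% of the TPM of the 55 protein-coding keratins in each library. Of the other 46, 25 were listed at 0 in all 6 libraries and 0 reached 1 TPM in any. The values closest below the list were those of KRT16, with a highest value of 0.876 TPM, KRT83 with 0.869 TPM and KRT85 with 0.85 TPM. The lowest gene on the list, KRT6C, had 3.4 TPM in its lowest control library but 0.957 TPM in its lowest shHDAC1 library. KRT19, KRT5 and KRT14, common epithelial keratins, were below 0.5 TPM in each library, and KRT20 was listed at 0.

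**Figure D1:**
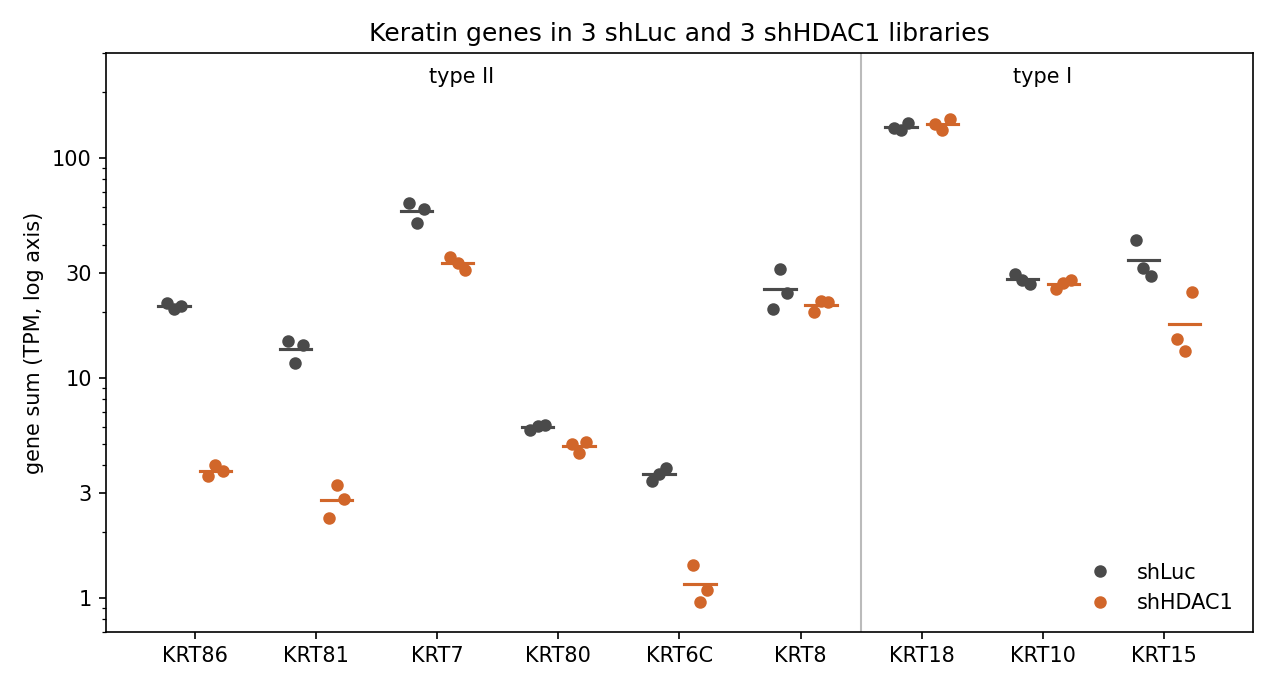
Gene sums of the 9 keratins in TPM on a log axis, with 1 point per library, shLuc in grey and shHDAC1 in orange, and a line at each group mean. KRT86, KRT81, KRT7, KRT80, KRT6C and KRT15 have groups that do not overlap, while the points of KRT8, KRT18 and KRT10 do.

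With HDAC1 knocked down, the keratins split into 3 kinds of result. KRT81 and KRT86 were at 20.6% and 17.9% of their control means, the difference for which they are treated as chosen. KRT7, KRT15 and KRT6C fell. KRT80, KRT8, KRT18 and KRT10 were not called. The libraries are of bulk RNA, in which fewer cells with a keratin and less of it per cell cannot be told apart. Of the 7 genes other than KRT81 and KRT86, 3 were called lower and 0 higher, and 4 had groups that did not overlap with shHDAC1 below. Among all genes tested, 10.3% were called lower, 16.9% were called higher and 16% had groups that did not overlap with shHDAC1 below. All 9 keratins passed the filter on low values, KRT6C with 5 libraries at 1 TPM or more and the others with 6. The median log2 fold change was -0.76 for the 9 keratins and 0.07 over all genes, and the genes were chosen with part of this known. The median shift of the fold changes over all genes was -0.10 when each library was centred on its median and -0.11 with quantile normalization, which moves genes unequally. After centring, 1828 genes were called lower and 1336 higher, against 1219 and 2007 without it.

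KRT86, a hair keratin, was at 21.8, 20.5 and 21.2 TPM with shLuc and at 3.58, 4 and 3.78 TPM with shHDAC1. The mean with shHDAC1 was 17.9% of control, a log2 fold change of -2.21 ± 0.11 (SE). The control libraries were close together, and so were the knockdown libraries, with a wide gap between them. KRT81 was at 14.7, 11.7 and 14.1 TPM with shLuc and at 2.3, 3.25 and 2.81 TPM with shHDAC1, or 20.6% of control, and its log2 fold change was -1.94 ± 0.14 (SE). No test is given for either gene, since both are treated as chosen for this difference. Summed as a single feature, which avoids the uncertain split, they had a log2 fold change of -2.24.

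Whether the split between them bore on that choice is not recorded, and it rests on how shared windows were assigned. The p-value of their ratio is therefore a description and not independent evidence. KRT81 was 0.636 ± 0.058 of KRT86 in controls and 0.732 ± 0.086 after knockdown (SD, n = 3). On the log2 scale the ratio differed by 0.20 between the groups, with p = 0.3 in an exact two-sided permutation test, whose smallest possible p is 0.1, and an adjusted p of 0.3 over 3 ratios. Nearly all KRT81 RNA was listed in KRT81-201. KRT86-201 held 92.3% ± 4.6 of KRT86 with shLuc and 92.4% ± 6.6 with shHDAC1, the longer coding form KRT86-202 held the rest, and KRT86-203 was listed at 0.

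KRT7, the type II keratin of ducts and glands, was at 62.2, 50.8 and 58.8 TPM with shLuc and at 35.3, 33.2 and 31.1 TPM with shHDAC1. All control libraries were above all knockdown libraries, and the mean fell to 58% of control. The log2 fold change was -0.76 ± 0.095 (SE), with an adjusted p of 0.00051 in limma.

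KRT7 RNA was mostly not the coding form. KRT7-201, its coding transcript, held 15.6% ± 2 of the gene's TPM in controls and 10.7% ± 0.41 after knockdown (SD, n = 3). With each transcript weighted by its length, KRT7-201 held 31% ± 3.51 and 23.3% ± 1.69. The largest part was KRT7-212, a non-coding processed transcript of 816 bases that overlaps exons 7 to 9 of KRT7-201. It was at 33.7, 31.6 and 31.9 TPM with shLuc and at 15.1, 18.9 and 20 TPM with shHDAC1. KRT7-201 was at 8.77, 7.56 and 10.5 TPM and at 3.8, 3.67 and 3.19 TPM, respectively. Both were lower in every knockdown library than in any control library, and summing coding transcripts only gave KRT7 a log2 fold change of -1.12. Of the 50-base windows of KRT7-212, 30.8% also lie in KRT7-AS, a gene on the opposite strand. The labels do not state that reads were counted by strand, so RNA of the 2 strands cannot be told apart there, and KRT7-AS was not analysed here.

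KRT6C, a type II keratin of palm and sole skin, was at 3.4, 3.64 and 3.88 TPM with shLuc and at 1.41, 0.957 and 1.09 TPM with shHDAC1. The groups were clearly apart, with the knockdown mean at 31.7% of control. The log2 fold change was -1.11 ± 0.15 (SE), with an adjusted p of 0.00079 in limma. KRT6C-201 held all of it.

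KRT15, a type I keratin of basal cells and of the hair follicle bulge, varied more between libraries than the others that fell. It was at 42.4, 31.6 and 29.2 TPM with shLuc and at 15.1, 13.2 and 24.7 TPM with shHDAC1. The groups did not overlap, though the highest knockdown library came close to the lowest control library. The log2 fold change was -0.96 ± 0.22 (SE), with an adjusted p of 0.011 in limma. Without the filter on low values the adjusted p was 0.076 and the call was lost.

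Its transcripts showed where that spread lay. KRT15-209, a retained-intron transcript of 470 bases, was at 14.8, 7.67 and 1.29 TPM with shLuc and at 2.6, 1.42 and 8.75 TPM with shHDAC1, so its groups overlapped widely. The coding KRT15-203 was steadier, at 8.29, 9.01 and 10.9 TPM with shLuc and 4.49, 4.73 and 4.46 TPM with shHDAC1. The coding KRT15-204 was at 11.2, 6.91 and 8.03 TPM and at 3.2, 3.92 and 7.38 TPM, with overlapping groups. Coding transcripts held 54.3% ± 10 of KRT15 with shLuc and 55.1% ± 9.5 with shHDAC1.

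KRT80, a type II keratin, was at 5.82, 6.05 and 6.11 TPM with shLuc and at 5.03, 4.54 and 5.1 TPM with shHDAC1. The groups did not overlap, but the difference was small, at a log2 fold change of -0.25 with a 95% confidence interval of -0.51 to 0.02 and an adjusted p of 0.15 in limma. It was called lower after median centring (-0.35, adjusted p = 0.043) and after quantile normalization (-0.41, adjusted p = 0.02).

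KRT18 is the type I chain that pairs with KRT8. It was at 136, 134 and 144 TPM with shLuc and at 143, 135 and 150 TPM with shHDAC1. The groups overlapped, and the log2 fold change was 0.05, with a 95% confidence interval of -0.10 to 0.20 and an adjusted p of 0.65 in limma. Its sign turned to -0.05 after median centring. KRT18-201 had 96.2 ± 9.66 TPM with shLuc and 110 ± 16.7 TPM with shHDAC1, and KRT18-202 had 40 ± 4.89 and 31.1 ± 9.91 TPM (SD, n = 3). Both are coding, and neither was called.

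KRT8 was at 20.6, 31.2 and 24.2 TPM with shLuc and at 20, 22.3 and 22.2 TPM with shHDAC1. The groups overlapped, and the log2 fold change was -0.21, with a 95% confidence interval of -0.53 to 0.11 and an adjusted p of 0.3 in limma. Adding the annotated KRT8 and KRT18 pseudogenes to their parent genes turned the KRT8 value to 0.30, with an adjusted p of 0.053. KRT8P12 was the one pseudogene in the test, and it rose from 11.8 ± 0.5 to 24.3 ± 0.608 TPM (SD, n = 3). Its log2 fold change was 0.98 ± 0.09 (SE), with an adjusted p of 9.1e-05 in limma. Its 2 transcripts shared 0.297% and 0.421% of their 50-base windows with KRT8.

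The KRT8 sum overstates the coding message. KRT8-216, its main coding transcript, had 2.07 ± 0.461 TPM in controls and 1.95 ± 0.227 TPM with shHDAC1 (SD, n = 3). It held 8.43% and 9.14% of KRT8 TPM, and 27% and 28.9% when each transcript was weighted by its length. Between 89% and 94.2% of KRT8 TPM in each library was in 3 short non-coding transcripts, KRT8-214 of 507 bases, KRT8-207 of 542 bases and KRT8-212 of 592 bases. All 3 lie at the upstream end of KRT8, where it overlaps KRT18 on the opposite strand. Of their 50-base windows, 31.9%, 72.2% and 15.7% in that order also occurred in KRT18 transcripts. Whether their reads came from KRT8 or from the more abundant KRT18 cannot be told apart without strand, so the level of KRT8 is uncertain.

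For the KRT8 and KRT18 pair, the log2 ratio of gene sums was -2.47 ± 0.33 in controls and -2.73 ± 0.13 after knockdown (SD, n = 3), with p = 0.2 in an exact two-sided permutation test and an adjusted p of 0.3. With coding transcripts only it was -6.07 ± 0.25 and -6.16 ± 0.14. With 3 libraries in each group the smallest p of the permutation test is 0.1, above the threshold for calls. The test therefore could not decide whether the ratio differed between the groups. The size of the ratio depended on which transcripts were counted.

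KRT10, the type I keratin of differentiating epidermis, was at 29.7, 28 and 26.7 TPM with shLuc and at 25.3, 27 and 27.9 TPM with shHDAC1. The groups overlapped. The log2 fold change was -0.07, with a 95% confidence interval of -0.27 to 0.12 and an adjusted p of 0.57 in limma. KRT10 was also among the genes with almost no shared sequence, at 0.434% of its 50-base windows.

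At transcript level, 24 of the 56 keratin transcripts passed the filter of 1 TPM in at least 3 libraries, and 16 were listed at 0 in all libraries. Of the 22 that do not belong to KRT81 or KRT86, 4 were called lower and 0 higher, beside 1.51% called lower and 1.83% called higher among 39716 transcripts tested. These were KRT7-201 (-1.12 ± 0.17 SE, adjusted p = 0.027), KRT7-212 (-0.82 ± 0.12 SE, adjusted p = 0.028), KRT15-203 (-0.90 ± 0.14 SE, adjusted p = 0.035) and KRT6C-201 (-1.11 ± 0.18 SE, adjusted p = 0.037), on the log2 scale in limma. Each lost its call when any 1 of the 6 libraries was left out, with adjusted p between 0.06 and 0.13, while its fold change kept its sign. Each also lost it with no filter on low values (adjusted p of 0.058 to 0.069), and KRT7-212 with no variance trend (0.062). The share of a gene's TPM in its most abundant transcript was compared for 6 genes, and the difference between the groups lay between -10.5 percentage points for KRT80-202 and 7.5 for KRT18-201. In an exact two-sided permutation test p was 0.3 to 1, with an adjusted p of 1. With 3 libraries per group the smallest p of that test is 0.1, which is above the threshold for calls. The test therefore could not have called a difference in share, and no conclusion is drawn from it.

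The lower keratin total with shHDAC1 lay mainly in type II genes. The 6 type II genes summed to 127 ± 2.6 TPM in controls and 67.3 ± 1.08 TPM after knockdown, and the 3 type I genes to 201 ± 7.43 and 187 ± 14.4 TPM (SD, n = 3). Without KRT81 and KRT86 the type II sum was 92.2 ± 0.703 and 60.7 ± 1.15 TPM, so the groups were also apart in the 4 genes left. Most of that difference was KRT7, which fell from 57.3 to 33.2 TPM, and KRT80 and KRT8 were not called. The type I groups overlapped. Their largest part was KRT18, at 138 and 143 TPM, while KRT15 fell from 34.4 to 17.7 TPM. The sums thus follow a few abundant genes of each type. Type II RNA was 0.632 ± 0.014 of type I RNA in control cells and 0.361 ± 0.033 with the knockdown. With coding transcripts only, the log2 ratio was -1.73 ± 0.051 and -3.30 ± 0.085. These sums hold genes treated as chosen for their difference, so no p-value is given for them. Their ratio was among the 3 ratios over which the permutation p-values above were adjusted.

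**Figure D2:**
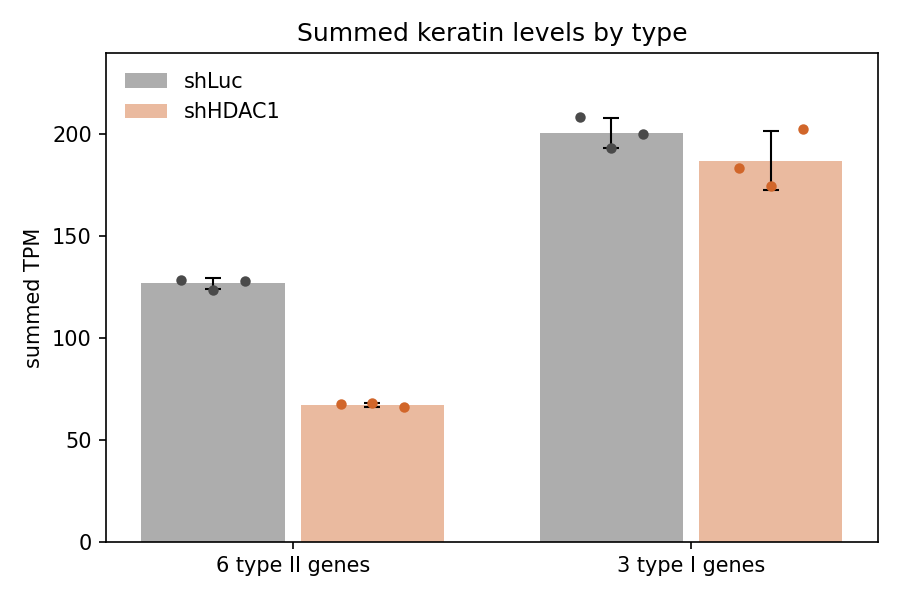
Summed TPM of the 6 type II and 3 type I keratins, with bars at the mean, error bars of 1 SD and 1 point per library (n = 3). The type II bars stand at 127 and 67.3 TPM with shLuc and shHDAC1, and the type I bars at 201 and 187 TPM with overlapping points.

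The 3 keratins that were called are placed in 2 keratin clusters, on chromosomes 12 and 17. The nearest tested genes to KRT7 were KRT80 and KRT86, and those to KRT6C were KRT81 and KRT8, so their neighbours are the keratins above. By start coordinate KRT81 and KRT8 lie 182603 and 428671 bases from KRT6C, so a nearest tested gene need not be adjacent. Keratins below the filter lie between. KRT15 had TMEM99 on one side, 694637 bases away by start coordinate. TMEM99 was at 20.5 and 23.8 TPM in the 2 groups and not called (adjusted p = 0.2 in limma). On the other side of KRT15, 175142 bases away, EIF1, a translation initiation factor, fell from 965 to 817 TPM. Its log2 fold change was -0.24 ± 0.047 (SE), with an adjusted p of 0.0055 in limma.

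Over the 6 libraries, the gene whose log2 level was most like that of KRT81 plus KRT86 was MYDGF, a secreted growth factor, with a Pearson r of 0.999 among 9411 genes. SUV39H2, a histone methyltransferase, KIAA1191, PTP4A3 and LITAF followed, with r of 0.997 or more. MYDGF had 449 to 456 TPM with shLuc and 300 to 309 TPM with shHDAC1, a smaller step with the same tight groups. For KRT8 plus KRT18 the closest was SMARCE1, a chromatin remodelling subunit, with r of 0.985, then SGSH, MUC1, USP32 and STX7. These are descriptions over libraries that share their group, and the first set mainly follows the step between groups.

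Other genes that build or handle intermediate filaments were read beside the keratins. Of 16 non-keratin filament genes 6 were tested, 0 were called lower and 2 higher, with a median log2 fold change of 0.27. Among all genes tested, without scaling, 10.3% were called lower and 16.9% higher. The counts of this list and of those below are to be read beside these shares. With 6 genes tested, 0 called lower is no result about the list. Vimentin (VIM), the filament of mesenchymal and blood cells, was at 41.1, 40.3 and 38.4 TPM with shLuc and at 53.4, 52.7 and 66 TPM with shHDAC1, a rise of 0.51 ± 0.098 (SE, adjusted p = 0.0053 in limma). The groups were apart, in the opposite order from KRT7. The lamin LMNB2 rose from 96.6 ± 13.3 to 137 ± 18.8 TPM (adjusted p = 0.015), but its call was lost without shLuc replicate 1 (adjusted p = 0.051), without shLuc replicate 2 (0.057) and without shHDAC1 replicate 1 (0.052).

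Of 35 keratin partners and modifiers, which anchor, fold or modify keratin filaments, 30 were tested, 8 were called lower and 4 higher, with a median of -0.07. After median centring the counts were 10 and 3. Periplakin (PPL), a linker of filaments to cell junctions, was at 12.4, 12.8 and 15.6 TPM with shLuc and at 4.11, 3.51 and 4.15 TPM with shHDAC1. It fell by 1.57 ± 0.13 on the log2 scale (SE, adjusted p = 5e-05 in limma), and its groups were far apart. Plakophilin 2 (PKP2), a desmosome protein, fell from 33.7 ± 3.34 to 16.5 ± 2.11 TPM (adjusted p = 0.00036). The other 6 called lower, named here after their values were seen, were the desmosome genes JUP and DSG2, the 14-3-3 genes SFN, YWHAZ and YWHAE, and the chaperone HSPA8. Desmoplakin (DSP), the main desmosome link to keratin, had 16.5 TPM in both groups (adjusted p = 0.99), likewise named after its values were seen.

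The partners called higher included STUB1, a ubiquitin ligase that acts with chaperones, at 60, 47.3 and 47.6 TPM with shLuc and 118, 116 and 117 TPM with shHDAC1. It rose by 1.17 ± 0.095 on the log2 scale (SE, adjusted p = 4.3e-05 in limma), and every knockdown library was well above every control library.

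Of 30 regulators of keratin genes 16 were tested, 4 were called lower and 2 higher, with a median of -0.01, and 5 and 2 after either scaling. TFAP2C, a transcription factor of ectoderm and its derivatives, was at 13.4, 14.5 and 15.3 TPM with shLuc and at 7.09, 6.81 and 5.59 TPM with shHDAC1. It fell by 1.04 ± 0.12 on the log2 scale (SE, adjusted p = 0.00037 in limma), with groups apart. NFE2L2, the factor of the oxidative stress response, fell from 53 ± 3.73 to 38 ± 4.23 TPM (adjusted p = 0.0072). ETS1, a lymphoid transcription factor, rose from 6.58 ± 0.368 to 14.8 ± 1.07 TPM (adjusted p = 0.00019). JUN rose from 17.6 ± 1.45 to 24.1 ± 2.96 TPM (adjusted p = 0.024), but lost its call without shLuc replicate 1 (adjusted p = 0.072), shLuc replicate 2 (0.078), shHDAC1 replicate 1 (0.083) or shHDAC1 replicate 3 (0.073).

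Because keratins mark epithelium, markers of epithelial and other cell types were read beside them. Of 20 epithelial markers 11 were tested, 2 were called lower and 1 higher, with a median of -0.10, and their summed level was 371 to 399.5 TPM with shLuc and 296 to 308 TPM with shHDAC1. KRT20 was listed at 0. ST14, a membrane protease, made up much of the sum and fell from 229 ± 17.4 to 162 ± 5.55 TPM (adjusted p = 0.001 in limma). ESRP1, an epithelial splicing factor, fell from 21.7 ± 0.888 to 12.5 ± 1.79 TPM (adjusted p = 0.0017). EPCAM, an epithelial adhesion protein named here as a defining marker, had 81.8 ± 7.84 and 76 ± 4.52 TPM and was not called (adjusted p = 0.41).

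The tight junction gene CLDN3 rose from 9.47 ± 0.831 to 13.3 ± 1.63 TPM (adjusted p = 0.024 in limma), but lost its call after median centring (0.057) and quantile normalization (0.077). It also lost it without shLuc replicate 1 (0.081), shLuc replicate 2 (0.074) or shHDAC1 replicate 3 (0.087). After either scaling the epithelial list held 3 genes called lower, 1 more than without it, and 0 higher. The part of these markers in the keratin differences was not tested.

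Fibroblast markers summed to 1.34 to 2.93 TPM with shLuc and 1.60 to 3.35 TPM with shHDAC1 over 10 genes, with LUM and PDGFRA listed at 0 and 0 genes tested. Myeloid markers summed to 10.9 to 14 TPM and 23.5 to 30.4 TPM, with MPO and S100A8 listed at 0. CD68, a lysosomal protein, rose from 8.49 ± 1.53 to 18.1 ± 1.98 TPM (adjusted p = 0.0009 in limma) and ITGAM, an integrin, from 2.26 ± 0.24 to 6.42 ± 1.41 TPM (adjusted p = 0.00093), the 2 tested of 10. T cell markers summed to 4.21 to 4.88 TPM and 5.55 to 6.92 TPM, with CD2 and CD3D listed at 0. Of the 2 tested CD8A rose (adjusted p = 0.034), a call lost with either scaling and when any library but shHDAC1 replicate 1 was left out. Of the 9 plasma cell markers tested 8 were called lower, led by TNFRSF17, the receptor BCMA (167 ± 2.8 to 32.9 ± 0.959 TPM), and the factor IRF4 (54.7 ± 4.75 to 24.9 ± 1.92 TPM), and 1 higher, FCRL5, a B cell surface receptor (2.3 ± 0.283 to 4.22 ± 0.285 TPM). With quantile normalization 6 were called lower and 1 higher.

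**Figure D3:**
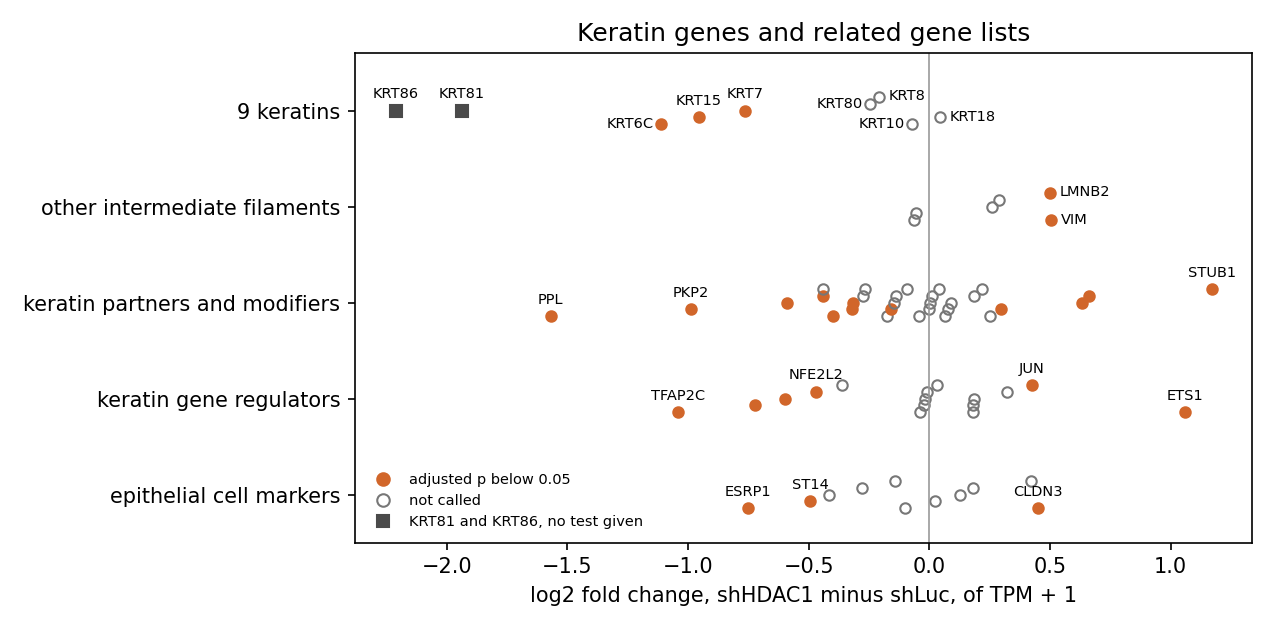
Log2 fold changes of log2(TPM + 1), shHDAC1 minus shLuc, of the 9 keratins and of the tested genes of 4 lists, with 1 point per gene, filled where the adjusted p is below 0.05, and squares for KRT81 and KRT86, for which no test is given. KRT6C, KRT15 and KRT7 are filled on the lower side and no keratin on the higher side, while each of the lists has filled points on the higher side, some of which (LMNB2, JUN, CLDN3) lost their call when a library was left out.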

How the data were processed

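Per the file headers, the authors deposited a table for each library with the TPM of Ensembl transcripts, and the values of a library added up to 1000000. Total RNA had been column-purified and DNase-treated before NEBNext Ultra libraries, per the labels' protocols. STAR, DESeq and hg19 are listed in the submitters' processing notes, without versions or roles. Which tool and annotation gave the TPM is not given in the sources used here.

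Of 173259 transcripts, 159239 (91.9%) matched GENCODE 29 by identifier without version, with 96.8% to 97.3% of the TPM, and values were summed per gene. Coordinates and sequences are from GENCODE 29 on GRCh38. The test was limma 3.58.1 (R 4.3.3) with a variance trend on log2(TPM + 1), with the group as the term. Depth is unknown. The libraries are described as triplicate transductions, and the p-values cover only the spread between them. Ratios and transcript shares were compared by exact permutation tests. Named genes were the 9 keratins, HDAC1, for each list up to 2 called genes per direction, by smallest p, the 5 genes most like each of 2 keratin sums at a mean of at least 5 TPM, and the neighbours of called keratins. The members, lists and tests were chosen with earlier results of these data known. Some items are not reported here.

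Alternatives were median centring, quantile normalization, pseudocounts of 0.1 and 5, no filter, a filter on a mean of 5 TPM, no variance trend, coding transcripts only, summed near-copies, a replicate block and each library left out. Other steps ran in Python 3.11.15 (scipy 1.17.1, pandas 2.3.3, numpy 2.4.6, Biopython 1.88, matplotlib 3.10.9).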

Additional observations from a re-analysis of the deposited data

How the results depend on the processing

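Of 649 alternative values computed, 550 were taken as unchanged. For fold changes and other differences this meant the same direction and side of the threshold, or a move below the spread between replicates. For counts of called genes or transcripts it meant only a limit on the ratio to the main count. Genes called lower after median centring, 1828 against 1219, were thus taken as unchanged. TPM hold no depth, so the precision of the lowest values, such as KRT6C at about 1 TPM, is unknown. KRT7 and KRT6C were called lower in every alternative that gave a value, and KRT15 in all but the test without a filter (-0.96, adjusted p = 0.076). The size of the KRT6C change depended on the pseudocount, with a log2 fold change of -1.59 with 0.1 and -0.49 with 5. KRT81 had a log2 fold change of -2.24 with a pseudocount of 0.1, -1.25 with 5 and -2.24 summed with KRT86. KRT86 had -2.45 and -1.57 with these pseudocounts, -2.31 after median centring and -2.35 after quantile normalization. KRT80 passed the threshold after median centring (-0.35) and quantile normalization (-0.41). KRT8 turned to 0.30 with its pseudogenes added, and KRT18 to -0.052 after median centring.

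Genes called higher numbered 1336 after median centring and 1295 to 1981 with a library left out, against 2007. Transcripts called lower numbered 269 with no filter, 332 with no variance trend and 61 to 174 with a library left out, against 598, and those called higher 321 with no filter and 131 to 278 with a library left out, against 726. The cause was not tested. The difference between the groups in the share of KRT86-201 turned from 0.18 to -3.34 percentage points with 0.1 TPM added. It was -18.7 with 1 TPM added, and leaving out a library gave -3.60 to 2.63. With a library left out, the difference in share also changed sign for KRT7-212 (-6.95 to 3.84), KRT80-202 (-15.9 to 0.237), KRT8-214 (-8.12 to 0.0697) and KRT15-203 (-4.97 to 4.43). KRT6C has no value with a mean of at least 5 TPM, and KRT86 none when summed with KRT81.

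The replicate numbers in the titles match across the groups, but same-numbered libraries had deviations correlated at -0.103, 0.182 and 0.0338, and the libraries numbered 1 and 3 did not correlate best with their own number, so the numbers are not taken to pair the libraries. With the replicate block, 79 transcripts were called lower and 114 higher, and the calls of KRT7-201, KRT7-212, KRT15-203 and KRT6C-201 (adjusted p of 0.1 to 0.14) and of CD8A (0.058) were lost. At gene level 1264 were called lower and 1979 higher, and no keratin call changed.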
